A study of Mus musculus with 141 samples.

Results

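The 9 genes described here encode nuclear subunits of cytochrome c oxidase, with their isoforms, and were read in RNA-seq libraries of inguinal white adipose tissue (iWAT). They are *Cox4i1*, *Cox4i2*, *Cox6a1*, *Cox6a2*, *Cox6b1*, *Cox6b2*, *Cox7a2*, *Cox7a2l* and *Cox8a*, chosen by name from the 36558 genes in the tables, and all 9 were found. The mice belonged to the HMDP (Hybrid Mouse Diversity Panel), which gathers inbred and recombinant inbred strains. Every mouse, female or male, was fed the HF/HS diet, rich in fat and sucrose, starting at an age of 8 weeks and lasting 8 weeks, and no chow-fed group was analysed here. The 82 strains gave 67 female libraries and 74 male ones, a single library for each sex of a strain, and 59 strains had both sexes. The strain families were BXD (32 female and 34 male libraries, from crosses of C57BL/6J and DBA/2J), AXB/BXA (9 and 11), CXB (3 and 3), BXH (2 and 3) and the classical inbred strains (21 and 23). Among the BXD strains was BXD24/TyJ-Cep290<rd16>/J, with a female and a male library, whose label names the rd16 allele of *Cep290*.

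Cytochrome c oxidase, complex IV of the respiratory chain, passes electrons from cytochrome c to oxygen and pumps protons across the inner mitochondrial membrane. Its catalytic core is encoded by mitochondrial DNA, and nuclear genes encode the smaller subunits around it. Several of these subunits exist as a ubiquitous form and a tissue-restricted form, such as a muscle form, a testis form or a form found in lung and in cells of small vessels. Adipose tissue uses the ubiquitous forms, and brown and beige adipocytes are known to add muscle-type subunits.

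Total estimated counts per library ranged from 6269154 to 78562648 (median 30233245), so that 3 counts, taken as the floor of detection, stood for 0.0992 CPM (counts scaled to the library total) at the median depth. As a check of the sex labels, *Uty*, *Kdm5d*, *Ddx3y* and *Eif2s3y*, all Y-linked, summed to 178 to 540 CPM in 73 of 74 male libraries and to 5.58 to 35 CPM in 65 of 67 female libraries. They went against the label in the library labelled NZW/LacJ male (8.03 CPM) and in those labelled BXD34/TyJ female (1349 CPM) and BXD69/RwwJ female (376 CPM). Adipocyte markers (*Adipoq*, *Plin1*, *Plin4*, *Cidec* and *Fabp4*) summed to 3306 CPM or more in every library, as the tissue label states. Skeletal muscle markers exceeded 1000 CPM in 4 libraries. The library labelled BXD34/TyJ female had the lowest TPM of 6 of the 9 genes and was absent, like BXD69/RwwJ female, from the comparison of the sexes within strains. NZW/LacJ was kept in that comparison under its labels, and an alternative fit left it out.

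Among the 9 genes, the ubiquitous subunits lay far above *Cox4i2*, *Cox6a2* and *Cox6b2*. Levels of different genes were compared in TPM, which correct for transcript length. *Cox4i1*, the ubiquitous form of subunit 4, was the highest of the 9, with 173 to 1106 TPM in females (median 737) and 522 to 1125 TPM in males (median 764). *Cox6b1*, the ubiquitous form of subunit 6b that faces the intermembrane space, followed with medians of 502 TPM in females and 499 TPM in males. *Cox6a1*, the form of subunit 6a found in most tissues, had medians of 398 and 421 TPM. *Cox8a*, the ubiquitous form of subunit 8, had medians of 371 and 389 TPM. These 4 genes differed little between the sexes in TPM, and the ranges of females and males overlapped for each.

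*Cox7a2*, the form of subunit 7a found in most tissues, ranged from 182 to 446 TPM in females and from 209 to 479 TPM in males. *Cox7a2l*, a relative of subunit 7a also known as Scaf1 that joins complex IV to complex III in supercomplexes, ranged from 70.7 to 300 TPM in females (median 192) and from 83.1 to 313 TPM in males (median 172). Within a library, *Cox4i1* exceeded *Cox6b1* in every library and *Cox6b1* exceeded *Cox6a1* in all but 8. *Cox6a1* and *Cox8a* were the closest neighbours in this order, with *Cox6a1* higher in all but 39 libraries. Their median log2 difference was 0.09, with an SD of 0.15 across libraries.

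The tissue-restricted forms were low. *Cox4i2*, the form of subunit 4 known from lung and from cells of small vessels, ranged from 0.307 to 15.6 TPM in females (median 7.25) and from 2.02 to 21.04 TPM in males (median 9.77). *Cox6b2*, known as the testis form of subunit 6b, ranged from 2.09 to 14.4 TPM in females (median 6.00) and from 1.51 to 7.80 TPM in males (median 3.58). *Cox6a2*, the heart and skeletal muscle form of subunit 6a, had medians of 0.473 and 0.602 TPM. It had no count in 8 libraries and at most 3 counts in 33, and a count of 0 limits the level only to the floor of each library. *Cox4i2* and *Cox6b2* overlapped in level, with *Cox4i2* higher in 110 libraries, lower in 31, and a median log2 difference of 0.86 against an SD of 0.998.

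**Figure D1:**
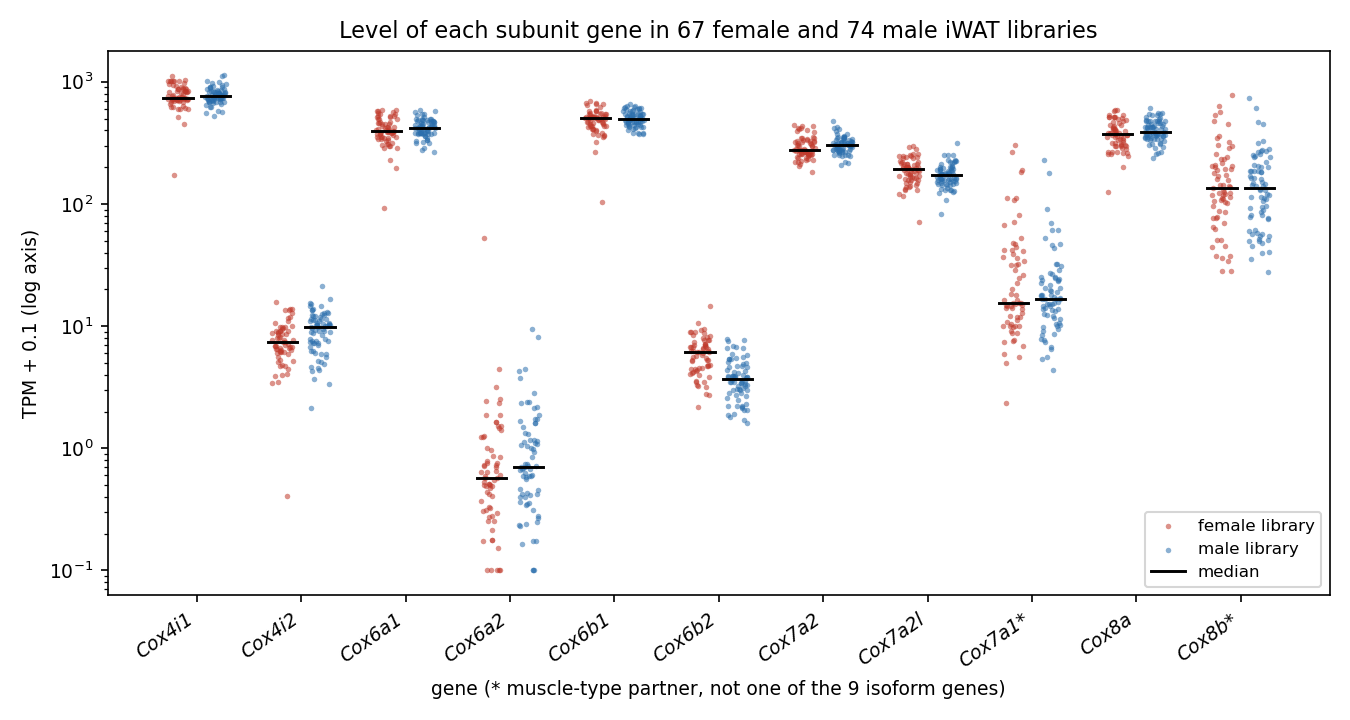
Level of the 9 subunit genes and of the muscle-type partners *Cox7a1* and *Cox8b* (TPM + 0.1, log axis), with a point per library (67 female, 74 male) and a line at the median. The ubiquitous forms sit near or above 100 TPM, *Cox4i2* and *Cox6b2* near 10 TPM or below, and *Cox6a2* has a median under 1 TPM with a single female library at 52.5 TPM.

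As a share of the TPM of each isoform pair, *Cox4i2* made up a median of 0.929% in females and 1.29% in males, and *Cox6b2* 1.13% and 0.727%. The share of *Cox6a2* reached 13.5% in a single female library and at most 2.07% in any male library. The share of *Cox7a2l* in its sum with *Cox7a2* was of another order, with medians of 38.997% in females and 35.05% in males. The muscle-type partners that are not among the 9 genes took larger shares than the other restricted forms: *Cox7a1* had a median of 5.54% of its pair with *Cox7a2* in females and 5.05% in males, and *Cox8b* 26.2% and 24.2% of its pair with *Cox8a*. *Cox8b*, a muscle and brown fat form, ranged from 28.1 to 781 TPM in females and from 27.9 to 735 TPM in males. It exceeded *Cox8a* in some libraries, among them BXD14/TyJ female (781 against 362 TPM) and SWR/J male (735 against 424 TPM).

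The genes lie on several chromosomes (build GRCm38). *Cox6a2* (chr7:128205435-128206387), *Cox6b1* (chr7:30616861-30626151) and *Cox6b2* (chr7:4751792-4753094) are on the minus strand of chromosome 7. *Cox4i1* (chr8:120668222-120674207) and *Cox4i2* (chr2:152754173-152765037) are on plus strands, and *Cox6a1* (chr5:115345642-115348981), *Cox7a2* (chr9:79755361-79759878), *Cox7a2l* (chr17:83501918-83517330) and *Cox8a* (chr19:7215153-7217616) are on minus strands. *Cox4i1* overlaps *Gm20388* on the same strand over its whole length and *Emc8* on the other strand over 352 bases, and *Cox6a2* lies within *Itgad* on the other strand. Transcripts of *Cox4i2*, *Cox6a2*, *Cox6b2* and *Cox8a* share no stretch of 31 bases, the length matched by kallisto by default, with any other gene of the GENCODE M21 transcripts. *Cox6a1* shares 18.5% of its stretches with a gene whose median was 0.261 TPM, and *Cox7a2l* shares 16.6% with the processed pseudogene *Gm6969*, whose median was 90.6 TPM.

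*Gm6969*, chosen after its values were seen, lies at chr12:24638669-24639010 (GRCm38, minus strand). Its reference sequence is a copy of part of the *Cox7a2l* transcript that holds 6 further bases in a single run, with 334 of its 342 bases matched and 2 substituted. C57BL/6J, the strain of the reference genome, is known to carry a shorter *Cox7a2l* protein than many other strains. The stretch around the 6 bases is shown for both loci, from the annotated transcripts, because reads that hold these bases match *Gm6969* and not *Cox7a2l* in that reference. Capitals mark the 6 bases at their leftmost placement, positions 214 to 219 of *Gm6969* counted from 1 at its 5′ end. This placement is not unique, since a small shift to the right leaves as many substitutions. As placed, a substitution (a against t) directly follows the capitals. The stretches are chr12:24638762-24638809 and chr17:83502696-83502737, both minus strand and within an exon.
Gm6969: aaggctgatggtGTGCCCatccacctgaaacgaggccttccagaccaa
Cox7a2l: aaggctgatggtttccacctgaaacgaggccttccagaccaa

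The values of *Gm6969* fell into separate ranges by strain. In 62 libraries it was at 7.36 TPM or less, with 29 of these at 0, and in 79 it was at 53.9 TPM or more, with no library between. C57BL/6J (7.21 TPM in the female and 7.36 TPM in the male), BALB/cJ (0.380 and 0) and all 6 CXB libraries lay in the low range, whereas A/J (89.3 and 102.8), DBA/2J (152.7 in the male) and C3H/HeJ (154.4 and 128.9) lay in the high range. The recombinant families were divided, with 36 low and 30 high libraries in BXD, 10 and 10 in AXB/BXA and 2 and 3 in BXH. Female and male lay in the same range in 58 of 59 strains, and the exception was NZW/LacJ (5.44 TPM in the female and 146.7 TPM in the library labelled male), the strain whose male library went against its sex label.

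*Gm6969* held up to 15.5% of the summed counts of both loci (median 10.9%). After the sex means were removed, 0.96 of the variance of its log2 CPM lay between strains, against 0.41 for *Cox7a2l* and 0.33 for the summed counts. Whether reads of *Cox7a2l* were counted under *Gm6969* was not tested, and the *Cox7a2l* values are therefore uncertain by that share. The sex difference of *Cox7a2l* is given below with and without the counts of the pseudogene.

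**Figure D2:**
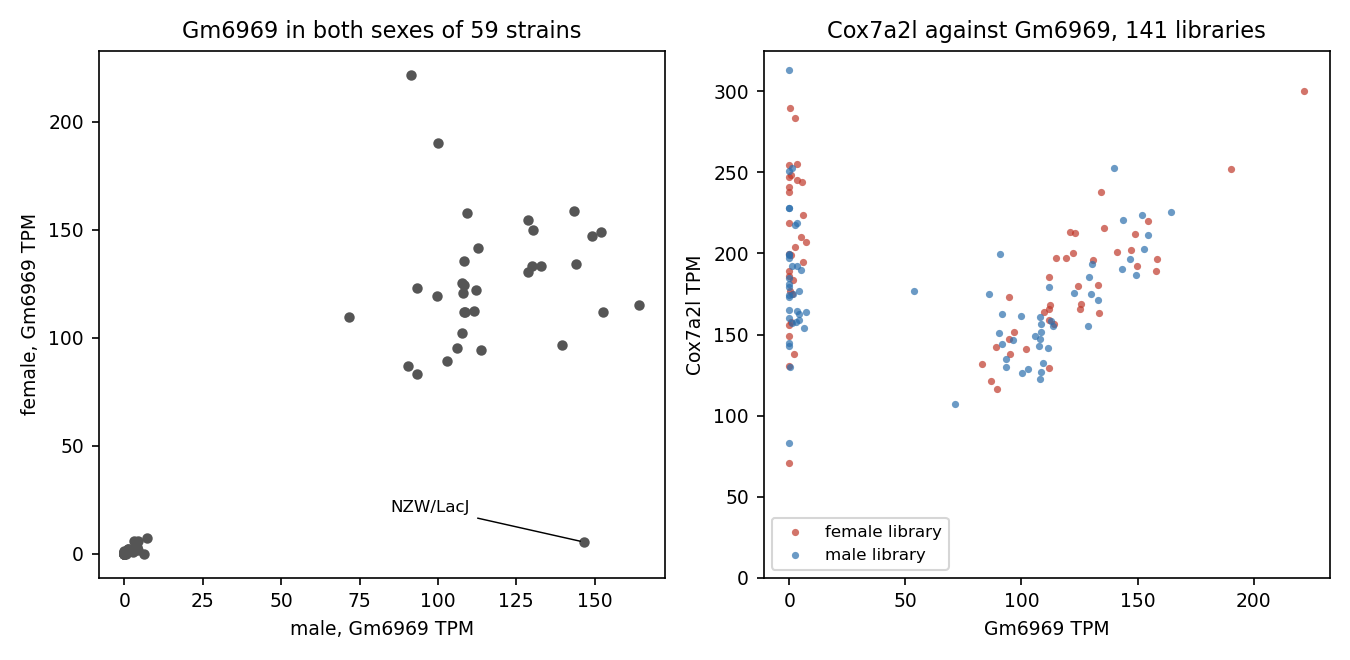
Left, *Gm6969* in the female against the male library of 59 strains (TPM); right, *Cox7a2l* against *Gm6969* in all libraries (TPM), with females and males in different colours. Strains lie near 0 or above 50 TPM in both sexes, and NZW/LacJ alone is low in the female and at 146.7 TPM in the library labelled male.

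The comparison of the sexes within strains asked whether the isoforms were sex-biased in iWAT. Of the 9 genes, 2 were lower in females (*Cox4i2* and *Cox8a*), 2 were higher (*Cox6b2* and *Cox7a2l*) and 5 did not pass the test. In the same test 29.8% of all 16765 genes were lower in females and 28.4% higher. The tissue-restricted *Cox6b2* and *Cox4i2* moved furthest, in opposite directions. The model had strain and sex as terms, fitted with edgeR's quasi-likelihood test on 59 strains with Benjamini-Hochberg adjustment over all genes, and a negative log2FC is lower in females. The log2FC was below 0 for 7 of the 9 genes (48% of all genes), with a median of -0.13 against 0.01 over all genes.

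*Cox6b2* had 0.710 to 3.50 CPM in the females of the matched strains (median 1.52) and 0.458 to 2.36 CPM in the males (median 0.936). The ranges overlapped, and the female was higher in 46 of 59 strains. Females averaged 1.59 ± 0.556 CPM, against 1.07 ± 0.437 CPM for males (SD, n = 59). The log2FC female vs. male was 0.59 (SE 0.079, edgeR adjusted p = 3.55e-09). The difference kept its direction and its call in all 15 alternatives, with a log2FC between 0.53 and 0.70.

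Mammary epithelial markers moved with sex as well. All 7 (*Epcam*, *Krt8*, *Krt18*, *Krt14*, *Krt5*, *Cldn3* and *Cldn7*) were higher in females, their sum ranging from 0.504 to 1201 CPM in females (median 384) and from 0.163 to 413 CPM in males (median 1.83), where the highest value was that of the library labelled NZW/LacJ male. The lowest female value was that of the library labelled BXD69/RwwJ female, which is not in the matched strains, and without it the females began at 63.4 CPM. In the matched males *Krt14* was at 0 in 36 libraries and *Krt5* in 35. Over all libraries Spearman's rho of *Cox6b2* with the mammary score, the mean log2 CPM of these genes, was 0.59, and it was 0.38 among females and 0.31 among males. The part of mammary cells in the sex difference was not tested. In bulk tissue, fewer cells of a type and less RNA per cell cannot be told apart.

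*Cox4i2* had 1.49 to 7.59 CPM in females (median 3.19) and 1.17 to 8.60 CPM in males (median 4.34). The female was lower in 46 of 59 strains, although the ranges overlapped almost entirely. Females averaged 3.46 ± 1.33 CPM, against 4.403 ± 1.48 CPM for males (SD, n = 59). The log2FC was -0.35 (SE 0.071, edgeR adjusted p = 2.8e-05). All 15 alternatives kept the direction and the call, with a log2FC between -0.37 and -0.24.

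Vascular markers were lower in females beside *Cox4i2*. Of 7 vascular mural markers, 5 were lower (*Rgs5*, *Kcnj8*, *Abcc9*, *Pdgfrb* and *Higd1b*) and *Myh11*, a marker of smooth muscle cells, was higher. Their sum ranged from 149 to 1868 CPM in females (median 807) and from 475 to 2161 CPM in males (median 1054), and no marker was at 0 in any matched library. The lowest female value was that of the library labelled BXD34/TyJ female, also outside the matched strains, and without it the females began at 393 CPM. The highest was that of the library labelled BXD69/RwwJ female, and the next was 1805 CPM in BXD84/RwwJ female. All 5 endothelial markers were lower, with sums of 450 to 1665 CPM in females (median 795) and 546 to 2021 CPM in males (median 1138). The same libraries held both ends of this female range, and the next highest was 1585 CPM in BXD84/RwwJ female. Spearman's rho of *Cox4i2* with the mural score was 0.53 among females and 0.68 among males, and with the endothelial score it was 0.64 in each sex. The part of vascular cells in the sex difference was not tested.

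*Cox7a2l* had 79.1 to 187 CPM in females (median 127.1) and 84.3 to 170 CPM in males (median 116.5). The female was higher in 37 of 59 strains. Females averaged 126.8 ± 21.3 CPM, against 115.6 ± 17.9 CPM for males (SD, n = 59). The log2FC was 0.14 (SE 0.032, edgeR adjusted p = 0.000296). Summed with *Gm6969*, an alternative chosen after seeing the data, the log2FC was 0.13 (edgeR adjusted p = 0.000702). Over all 15 alternatives it lay between 0.10 and 0.24. The vascular lists, lower in females as given above, ran opposite to *Cox7a2l* across libraries, with rho of -0.53 among females and -0.65 among males for the mural score and of -0.41 and -0.65 for the endothelial score. The adipocyte and macrophage scores ran opposite to *Cox7a2l* as well. Among females and males rho was -0.465 and -0.358 for the adipocyte score, and -0.463 and -0.41 for the macrophage score. The part of these cell types in the sex difference was not tested.

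*Cox8a* had 76.4 to 277 CPM in females (median 129) and 76.02 to 290 CPM in males (median 156). The female was lower in 38 of 59 strains. Its log2FC of -0.17 (SE 0.072) had an edgeR adjusted p of 0.0381, and 6 of the 15 alternatives lost the call, with adjusted p up to 0.301. Without the 3 matched strains that hold a library with more than 1000 CPM of skeletal muscle markers, the log2FC was nearly as large, at -0.16, with an adjusted p of 0.0594. All 5 adipocyte markers were lower in females beside it, with sums of 3306 to 34563 CPM in females (median 17718) and 7511 to 42300 CPM in males (median 24013), and none was at 0 in a matched library. Spearman's rho of *Cox8a* over all libraries was 0.60 with the adipocyte score and -0.17 with the macrophage score (-0.30 among females and -0.19 among males). Brown and beige adipocyte markers were divided (sums of 4.90 to 3899 CPM in females and 27.3 to 2502 CPM in males). In edgeR 2 of 6 were lower (*Ppara* and *Otop1*) and 0 higher, against 29.8% and 28.4% of all genes. *Elovl3* (log2FC 0.88, edgeR adjusted p = 0.0655) and *Dio2* (0.30, adjusted p = 0.208) leaned the other way. Limma-voom called 1 of the 6 lower and 1 higher. Macrophage markers were lower for 5 of 5 (96.4 to 753 and 102.8 to 972 CPM). Of the muscle markers, 0 of the 5 tested passed in edgeR (2.91 to 20076 and 3.09 to 2753 CPM). With the muscle and the brown and beige scores as covariates, the log2FC of *Cox8a* was -0.16. The part of adipocytes and macrophages in the difference was not tested.

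*Cox7a2* had the reverse outcome, with a log2FC of -0.15 (SE 0.066) and an edgeR adjusted p of 0.0523 that fell under the threshold in 6 of 15 alternatives, among them the fit without NZW/LacJ (adjusted p = 0.0364). The female was lower in 42 of 59 strains. For the other ubiquitous forms the 95% intervals of the log2FC were -0.20 to 0.05 (*Cox4i1*), -0.27 to 0.01 (*Cox6a1*) and -0.22 to 0.04 (*Cox6b1*). *Cox6a2* had the widest interval, from -0.81 to 0.25. These intervals hold the size of the called change in *Cox8a*, so a missed threshold does not show equal levels.

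**Figure D3:**
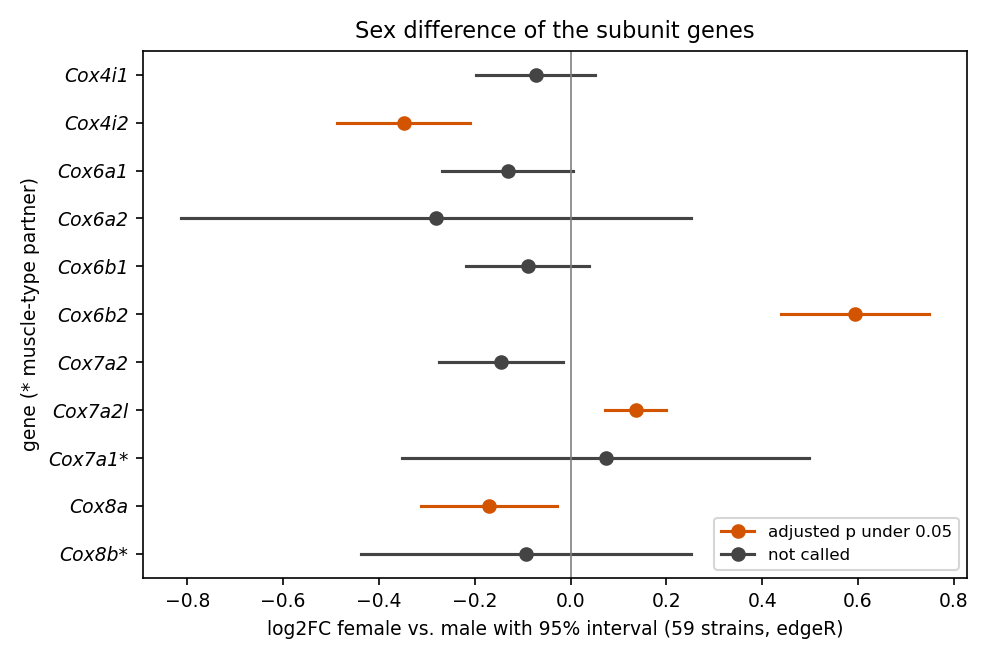
Log2FC female vs. male with the 95% interval of the 9 genes and of the partners *Cox7a1* and *Cox8b* (edgeR, 59 strains), with calls at an adjusted p under 0.05 in orange. *Cox6b2* (0.59) and *Cox7a2l* (0.14) lie above 0, *Cox4i2* (-0.35) and *Cox8a* (-0.17) below, and the intervals of the other genes either cross 0 or, for *Cox7a2*, end close to it.

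The direction of small differences rested on the scaling. With library totals in place of TMM, the median log2FC of all genes moved from 0.01 to 0.12, and *Cox4i1* (0.03) and *Cox6b1* (0.02) turned positive. Relative to that median, *Cox4i1* was at -0.08 and *Cox6b1* at -0.10. *Cox4i1* was also at 0.00 in limma on log2(TPM + 1). *Cox4i2*, *Cox6b2* and *Cox7a2l* kept their directions under every scaling.

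Isoform ratios, which compare 2 genes within a library, were tested within the 59 strains with two-sided permutation tests of signs (100000 resamples, 4 ratios, p not adjusted). The log2 TPM ratio of *Cox6b2* to *Cox6b1* was -6.39 ± 0.615 in females and -7.05 ± 0.577 in males (SD), a difference of 0.66 in the same direction in 50 of 59 strains (permutation p = 1e-05, the smallest these resamples can give). The ratio of *Cox4i2* to *Cox4i1* was 0.28 lower in females on average, at -6.72 ± 0.551 against -6.44 ± 0.687, and lower in 39 strains (permutation p = 0.00306). The ratio of *Cox7a2l* to *Cox7a2* was 0.27 higher in females, at -0.59 ± 0.524 against -0.86 ± 0.433, and higher in 43 strains (permutation p = 0.00075). The ratio of *Cox6a2* to *Cox6a1* was -9.27 ± 1.69 in females and -9.24 ± 1.48 in males (permutation p = 0.905), and its direction changed with the pseudocount and without NZW/LacJ.

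**Figure D4:**
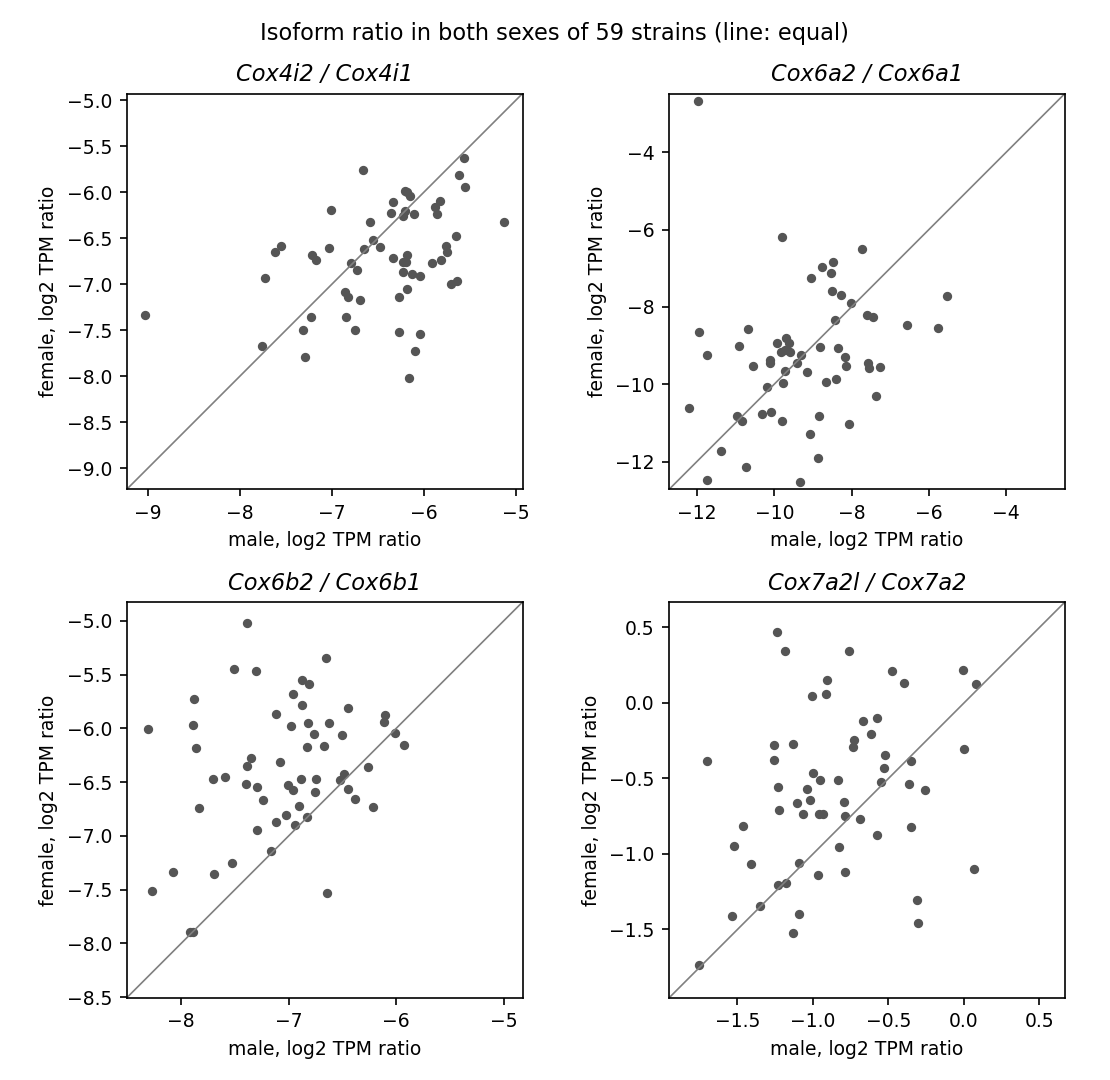
Log2 TPM ratio (pseudocount 0.1) of each isoform pair in the female against the male library of 59 strains, with a point per strain and a line of equality. Points lie mostly above the line for *Cox6b2*/*Cox6b1* (50 of 59 strains) and *Cox7a2l*/*Cox7a2* (43), mostly below it for *Cox4i2*/*Cox4i1* (39), and on both sides for *Cox6a2*/*Cox6a1*.

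Other genes of complex IV were read from a list of 40 further subunits and assembly genes, of which 39 were tested. In females 15 were lower, 0 were higher and 24 did not pass the test (29.8% and 28.4% over all genes). In edgeR 0 of the 11 further subunits passed (1 had an unadjusted p under 0.05), whereas limma-voom and DESeq2 each called 1 of them lower, and the 15 were among the 28 assembly and associated genes tested. With library totals 5 of the 39 were lower and 7 higher, with 8 and 3 in limma on log2(TPM + 1), so the direction of the list as a whole rested on the scaling. *Higd1a*, a hypoxia-induced inner membrane protein that binds complex IV, averaged 43.1 ± 17.6 CPM for females, against 55.6 ± 17.3 CPM for males (SD, log2FC -0.41, SE 0.076, edgeR adjusted p = 6.59e-06). *Cox19*, a copper-handling assembly factor, was at 35.2 ± 12.6 and 44.7 ± 12.3 CPM (log2FC -0.37, SE 0.066, edgeR adjusted p = 2.92e-06). *Tmem177*, which acts in the assembly of the second core subunit, had a log2FC of -0.24 (SE 0.055, edgeR adjusted p = 0.000163).

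Strain was compared across the same 59 strains, each with a female and a male library, so that a strain rests on a pair of libraries. All 9 genes differed between strains (71.2% of all genes did), with edgeR adjusted p between 1.55e-06 and 0.0119. As a description, the share of the variance of log2 CPM between strains was 0.52 for *Cox4i2*, higher than in 87.6% of the genes tested, 0.41 for *Cox7a2l* and between 0.29 and 0.35 for the other ubiquitous forms and *Cox6b2*, against a median of 0.29 over all genes. In the 26 matched BXD strains, 6 of the 8 genes tested differed (51.3% of all genes), and *Cox6b2* (edgeR adjusted p = 0.0673) and *Cox7a2l* (0.0899) did not pass. *Cox6a2* had too few counts in BXD to be tested.

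The strain extremes differed between isoforms. In CPM, the ubiquitous subunits were highest in BXD14/TyJ female for *Cox4i1* (762 CPM), *Cox6a1* (324 CPM), *Cox6b1* (411 CPM) and *Cox7a2* (234 CPM), a library with 3899 CPM of brown and beige adipocyte markers, the most of any. In CPM the same 4 genes were lowest in AXB12/PgnJ female, at 182, 66.8, 91.4 and 56.4 CPM, where those markers summed to 4.90 CPM and the adipocyte markers to 3306 CPM, the least of any in both lists. These extremes depended on the unit, since in TPM *Cox4i1* was highest in BXD12/TyJ male (1125 TPM, against 865 TPM in BXD14/TyJ female) and lowest in BXD34/TyJ female (173 TPM, against 513 TPM in AXB12/PgnJ female). In TPM, *Cox4i2* was highest in BXD71/RwwJ male (21.04 TPM) and CBA/J male (16.5 TPM), and *Cox6b2* in NZB/BlNJ female (14.4 TPM) and FVB/NJ female (10.4 TPM). NZB/BlNJ male had the second-lowest *Cox4i2* of all libraries, at 2.02 TPM.

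The strain difference of *Cox6a2* followed few libraries. Its highest values were 27.3 CPM in BXD79/RwwJ female, 4.24 CPM in BXA7/PgnJ male, 3.05 CPM in BXH8/TyJ male and 2.23 CPM in BXD11/TyJ male. These are the 4 libraries with over 1000 CPM of skeletal muscle markers, with 20076, 2502, 2753 and 1248 CPM in the same order, whereas no other library had more than 1.77 CPM of *Cox6a2*. The opposite-sex library of BXD79/RwwJ had no count of *Cox6a2* and 40.2 CPM of the markers. Between strains, *Cox6a2* had an edgeR adjusted p of 1.55e-06, limma-voom gave 0.456, and without the 3 matched strains it had too few counts to be tested. The share of its variance between strains was 0.15, higher than in 17.1% of genes.

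Strain families were compared within each sex among BXD, AXB/BXA and the classical inbred strains. In females 1 of 9 genes differed (12% of 18281 genes), and in males 0 of 9 did (7.09% of 17631 genes) in edgeR, with 2 of the 9 at an unadjusted p under 0.05 and 0 called by limma-voom. *Cox4i2* in females was at 3.98 ± 1.48 CPM in BXD (n = 32), 3.36 ± 0.905 CPM in AXB/BXA (n = 9) and 2.80 ± 0.911 CPM in the classical strains (n = 21; edgeR adjusted p = 0.0486). The classical strains were 0.52 below BXD on the log2 scale. This call was lost in 5 of the 7 alternatives that could test the gene, with adjusted p between 0.0233 and 0.0846. The lowest value of 0.0233 came without the libraries labelled BXD34/TyJ and BXD69/RwwJ female, the first of which had the lowest *Cox4i2* of all, 0.542 CPM.

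In males the order of the *Cox4i2* means was the same, with 4.67 ± 1.29 CPM in BXD (n = 34), 4.52 ± 1.44 CPM in AXB/BXA (n = 11) and 3.86 ± 1.54 CPM in the classical strains (n = 23), and did not pass the test (edgeR adjusted p = 0.367). *Cox7a1*, the muscle-type partner of *Cox7a2*, differed among families in males (edgeR adjusted p = 0.00258), 1.31 higher in the classical strains than in BXD on the log2 scale, but limma-voom gave 0.194. The medians were closer, at 3.51 CPM in the classical strains and 2.96 CPM in BXD, and the highest males were SJL/J (60.1 CPM, with 2502 CPM of brown and beige adipocyte markers) and SWR/J (42.1 CPM, with 1113 CPM). The part of brown and beige adipocytes in this difference was not tested. Female minus male differences of *Cox6b2* averaged 0.47 in BXD (n = 26), 0.69 in AXB/BXA (n = 9) and 0.61 in the classical strains (n = 20), with the female higher in 19, 7 and 17 strains. For *Cox4i2* these averages were -0.28, -0.36 and -0.37. The test of the sex difference between families called 0 of 16778 genes in edgeR (0% of genes, 678 at an unadjusted p under 0.05) and 0 in limma-voom, and none of the 9 genes had an unadjusted p under 0.05.

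Across libraries the genes fell into groups by how they varied together, given as a description with no test, since libraries share strains and depth. *Cox4i1*, *Cox6a1*, *Cox6b1*, *Cox7a2* and *Cox8a* varied together, with Spearman's rho of log2 CPM between 0.88 and 0.96 for their 10 pairs over all libraries. Their 20 pairs with *Cox4i2*, *Cox6a2*, *Cox6b2* and *Cox7a2l* had rho between -0.21 and 0.22. The muscle-type *Cox7a1* and *Cox8b* varied with the ubiquitous forms (rho with *Cox4i1* 0.74 and 0.77). *Cox7a2l* had rho of -0.62 with the mural score, -0.59 with the endothelial, -0.48 with the macrophage and -0.47 with the adipocyte score, where *Cox4i1* had 0.50 with the last.

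**Figure D5:**
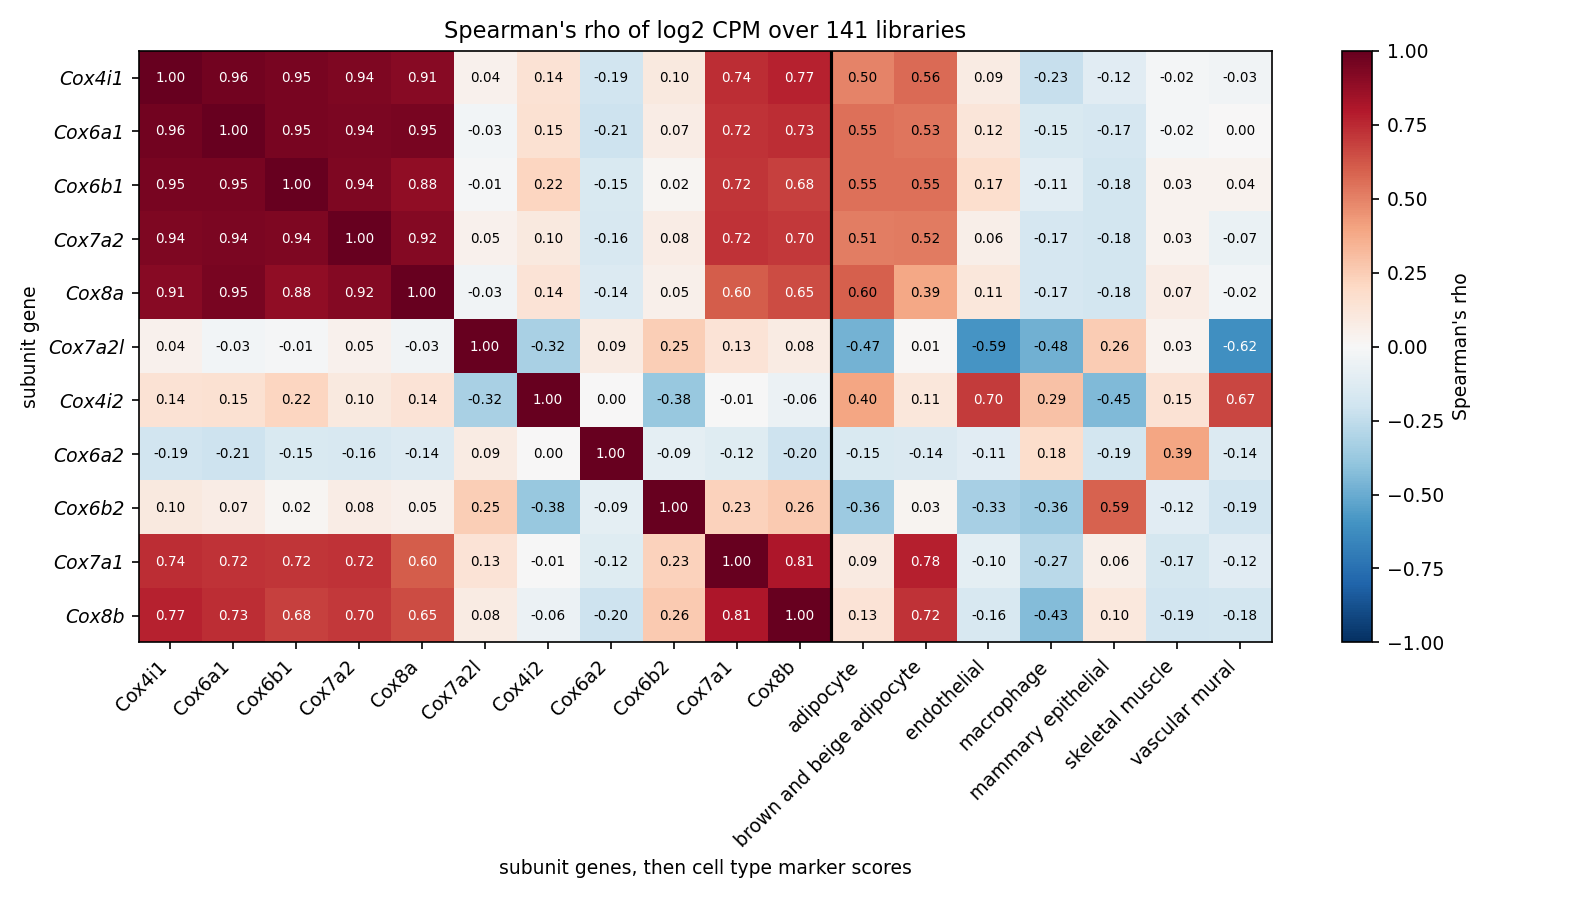
Spearman's rho of log2 CPM over all libraries between the 9 genes, *Cox7a1* and *Cox8b* (left block), and between each gene and 7 cell type marker scores (right block). The first 5 genes form a block with rho of 0.88 or more, which *Cox7a2l*, *Cox4i2*, *Cox6a2* and *Cox6b2* do not join.

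The genes most like each member in all libraries differed in the same way. *Cox4i1* was closest to *Cox6a1* (rho 0.96), *Atp5j2* (0.96) and *Ndufb9* (0.96), and *Cox6b1* to *Ndufb6* (0.97), *Ndufa4* (0.96) and *Ndufa8* (0.96). *Cox6a1* was closest to *Cox4i1*, *Uqcr11* (0.96) and *Ndufb8* (0.96), *Cox7a2* to *Atp5k* (0.95), *Ndufa4* (0.95) and *Cox6a1* (0.94), and *Cox8a* to *Uqcr11* (0.96), *Cox6a1* (0.95) and *Ndufa13* (0.93). *Cox4i2* was closest to *Bcl6b* (0.78), *Kcnj8* (0.78) and *Ndufa4l2* (0.77), with 0.65 to 0.79 within a sex. *Cox7a2l* was closest to *Fkbp3* (0.75), *Nsa2* (0.72) and *Rps23* (0.72). *Cox6a2* was closest to *Fbxo40* (0.63) and *Ttn* (0.62), and *Cox6b2* to *Mpzl2* (0.65), *Cadps2* (0.64) and *Tpd52l1* (0.64), which fell to 0.38 to 0.52 within a sex.

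The promoters of *Cox6a1*, *Cox6b1* and *Cox6b2* are shown because the first 2 vary together across libraries and *Cox6b2* does not. RefSeq promoters (GRCm38.p6, 250 bases before to 50 after the start site) were at hand for 6 of the 9 genes. Capitals mark exact matches, on either strand, of GCGCATGC (for the NRF1 motif) or CCGGAAG (for the ETS motif). AAGATGGC (for the YY1 motif) was searched as well, and other spellings of these motifs were not. The windows are chr5:115348909-115349208, chr7:30626065-30626364 and chr7:4753045-4753344, each on the minus strand and printed 5′ to 3′.
Cox6a1: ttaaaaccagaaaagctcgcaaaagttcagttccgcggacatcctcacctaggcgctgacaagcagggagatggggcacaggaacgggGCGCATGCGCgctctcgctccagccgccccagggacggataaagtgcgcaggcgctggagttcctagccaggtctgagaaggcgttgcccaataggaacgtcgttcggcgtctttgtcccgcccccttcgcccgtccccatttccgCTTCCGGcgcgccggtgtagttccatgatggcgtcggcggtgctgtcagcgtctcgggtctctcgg
Cox6b1: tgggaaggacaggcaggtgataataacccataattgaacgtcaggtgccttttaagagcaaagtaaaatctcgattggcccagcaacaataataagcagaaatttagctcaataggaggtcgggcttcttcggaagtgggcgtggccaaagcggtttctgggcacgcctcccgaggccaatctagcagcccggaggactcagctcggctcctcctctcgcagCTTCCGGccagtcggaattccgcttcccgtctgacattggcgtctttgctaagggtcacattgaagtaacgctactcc
Cox6b2: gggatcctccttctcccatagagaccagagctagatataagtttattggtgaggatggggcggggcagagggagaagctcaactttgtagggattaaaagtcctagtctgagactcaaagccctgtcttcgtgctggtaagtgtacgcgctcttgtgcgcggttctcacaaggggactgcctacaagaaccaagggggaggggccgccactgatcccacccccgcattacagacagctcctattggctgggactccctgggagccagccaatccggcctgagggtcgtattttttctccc

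*Cox6a1* holds the NRF1 letters 162 bases before the start site, read on both strands as 2 overlapping matches, and the ETS letters 16 bases before it. *Cox6b1* holds the ETS letters 28 bases before the start site, and *Cox8a* holds them at 2 places. *Cox6b2*, *Cox7a2* and *Cox7a2l* hold none of the 3 exact strings in these windows, which does not show that they lack the motifs in other spellings. Of these, *Cox7a2* varied together with *Cox6a1* (rho 0.941) and *Cox6b1* (0.935) across libraries. Whether the motifs bear on how the genes vary was not tested. Of all 32851 promoters of this length, 2.71% held the NRF1 letters, 8.86% the ETS letters and 2.75% the YY1 letters. *Cox6a1* had 32 CpG dinucleotides, *Cox6b1* 17 and *Cox6b2* 10, against a median of 7 over all promoters.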

How the data were processed

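RNA was sequenced from subcutaneous adipose tissue of 67 female and 74 male mice. The authors made stranded paired-end libraries and quantified them with kallisto 0.46.1 against the Ensembl release 97 transcriptome of GRCm38 (mm10), with transcripts summed per gene by tximport. Estimated counts, as deposited, carry no normalization between libraries, and 30.3% of them are not whole, since kallisto splits reads among matching transcripts. In the TPM table the authors' scaling accounts for transcript length and library total, so it carries no depth.

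Estimated counts were rounded, filtered with filterByExpr (16765 genes) and scaled by TMM, and tested with edgeR 4.0.16 in R 4.3.3 by its quasi-likelihood test. P-values were adjusted by Benjamini-Hochberg, with a threshold of 0.05. Sex and strain were tested in the model ~ Strain + Sex on the 59 strains with both sexes, which blocks by strain. The pairing comes from the strain labels, and the median share of variance between strains over all genes was 0.29. Family was tested within each sex and as an interaction with sex. CPM are TMM-scaled, log2 CPM carry a prior count of 2, and log2 TPM ratios a pseudocount of 0.1. Standard errors and 95% intervals were derived from the F statistic. Each strain and sex is a single library. The intervals are for the average sex difference and rest on how far that difference varied between strains. Floors of 3 counts cover counting error only.

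Alternatives were DESeq2 1.42.0, limma and limma-voom (limma 3.58.1), other scalings, filters and pseudocounts, no strain block, doubtful libraries left out and marker scores as covariates. On simulated counts of 16728 genes, 195 of 199 changed genes were called for sex with 8 others, and 200 of 200 for strain with 9 others. The simulated sex changes were confined to these few genes and were larger than those of *Cox4i2*, *Cox7a2l* and *Cox8a*. The simulation therefore does not cover changes as small as theirs. Symbols came from GENCODE M21 and the reference name table. The genes, lists and tests were chosen with earlier results of these data known. Named genes are the 9 genes, *Cox7a1* and *Cox8b*, the 3 called genes of the complex IV list with the largest log2FC in each direction, the 3 genes with the highest rho per member (1 gene for *Cox6a2* is not reported here), the Y-linked genes and the markers. *Gm6969* and the 3 genes that overlap a member fall outside this rule. Plots and ratios used Python 3.11.15, numpy 2.4.6, pandas 2.3.3 and matplotlib 3.10.9.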

Additional observations from a re-analysis of the deposited data

How the results depend on the processing

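With library totals, females had 2794 genes lower and 7364 higher (4988 and 4759 with TMM), 1 of the 9 genes was lower, and *Cox4i1* (0.035), *Cox6b1* (0.018) and *Cox8b* (0.023) reversed. Without the genes of mitochondrial DNA, 4 members were lower, beside 5593 of the 16760 genes tested. Limma on log2(TPM + 1) called 2878 genes and 1 member lower, and on log2(TPM + 0.1) 2855 and 1, with *Cox4i1* at 0.0026 in both. With no replicate block (no strain pairing), 4104 genes were lower and 4086 higher, 1 member was lower, and *Cox6a2* (0.76) and *Cox8b* (0.050) reversed. With all libraries and no block, 1 member was lower, beside 4220 of 16862 genes, *Cox6a2* was at 0.56 and *Cox8b* at 0.17. Without strains with muscle markers over 1000 CPM, 1 member was lower, beside 4838 of 16762 genes. The block otherwise changed no call of the members or of the isoform ratios. *Cox6a2*/*Cox6a1* reversed with a pseudocount of 1 (0.038) and without NZW/LacJ (0.020).

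In the family comparison in females, 3717 genes were called with no filter, 775 where each library had to hold 10 counts, 775 in limma-voom and 1431 without BXD34/TyJ and BXD69/RwwJ (2189 as reported). The count of members called there was 0 in place of 1 with no filter, library totals, mitochondrially encoded genes left out, the minimum of 10 counts, limma-voom, and without AXB19a/PgnJ and AXB19b/PgnJ. In males, 2282 genes were called with no filter and 633 with the minimum of 10 counts. The causes were not tested. *Cox4i2*, *Cox6b2* and *Cox7a2l* kept direction and call between the sexes in all 15 alternatives. Low counts limit *Cox6a2*.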
